A study of Mus musculus with 26 samples.

Results

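Mitosis and spindle genes encode the cyclins, kinases, kinetochore proteins, motor proteins and cytokinesis factors with which a cell separates its duplicated chromosomes, together with the proliferation antigen Mki67 and the topoisomerase Top2a. The 42 genes were chosen by symbol, with earlier results of these data known. Each was represented by an array probe set that carried its symbol and no other, and the brightest on average was taken where a gene had several. By this rule 41 of the 42 were measured, among 19937 genes in all. Cyclin B1, Ccnb1, had no probe set with its symbol alone in the annotation used here and was not analysed here.

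Expression was measured on an Affymetrix gene-level array in 26 samples of mouse cells of strain C57BL/6, in a study of MLL-AF9, a leukaemia fusion gene. Long-term hematopoietic stem cells (LT-HSC, n = 4) and granulocyte macrophage progenitors (GMP, n = 4) were sorted as wild-type cells from bone marrow. The other samples were lines immortalized in culture from either cell type and harvested from liquid medium with or without doxycycline (dox), an antibiotic used to switch inducible transgenes. For LT-HSC-derived lines there were 2 arrays with dox and 3 without at 48 h, and 3 of each kind at 72 h. For GMP-derived lines there were 4 arrays with dox and 3 without, all at 48 h. All cultured groups thus share immortalization and culture, and the no-dox groups are not normal cells. Arrays of lines carry the names B6-1, B6-2, B6-3 and F6-6. Whether a line is 1 clone, whether a name shared by LT-HSC-derived and GMP-derived lines marks 1 animal, which promoter drives the transgene, and whether the hours count from adding or removing dox: none of this is stated in the sources at hand.

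A dividing cell raises most of these messages towards G2 and mitosis and degrades many of their products when it leaves mitosis. Their RNA therefore follows the share of cells that are cycling. LT-HSC are largely quiescent in adult marrow, whereas GMP divide often to supply granulocytes and macrophages. The timing is set largely at the promoter, where the MuvB complex with B-MYB (Mybl2) and FOXM1 acts through a short element named CHR, usually with CCAAT boxes bound by NF-Y close by.

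Promoter sequence is shown first, because it is a feature the members share that their choice did not use. RefSeq's promoter table of build GRCm38.p6, with 250 bases before to 50 bases after each transcript start, held 36 of the 42 members, 35 of them measured on the array. The windows below are the 130 bases before the start of 6 members with both motifs and of Pttg1, which has neither, each 5′ to 3′ in the direction of its gene and ending at the base before the start. These windows do not stand for all members, as set out below the sequences. Capitals mark the CHR letters TTTGAA, or TTCAAA where they lie on the opposite strand, and the CCAAT box letters CCAAT, or ATTGG on the opposite strand. Their positions are chr10:69352913-69353042 (minus strand), chr4:118437344-118437473 (minus strand), chr2:164769799-164769928 (plus strand), chr19:37376252-37376381 (plus strand), chr7:127042421-127042550 (minus strand), chr11:99024190-99024319 (minus strand) and chr11:43425982-43426111 (minus strand).
Cdk1: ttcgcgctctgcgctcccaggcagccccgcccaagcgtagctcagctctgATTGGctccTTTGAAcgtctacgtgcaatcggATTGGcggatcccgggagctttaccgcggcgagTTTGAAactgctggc
Cdc20: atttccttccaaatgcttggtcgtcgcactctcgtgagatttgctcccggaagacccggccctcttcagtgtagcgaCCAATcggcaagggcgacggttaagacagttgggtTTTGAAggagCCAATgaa
Ube2c: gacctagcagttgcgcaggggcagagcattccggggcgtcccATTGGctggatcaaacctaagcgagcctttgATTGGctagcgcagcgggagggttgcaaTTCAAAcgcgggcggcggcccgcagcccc
Kif11: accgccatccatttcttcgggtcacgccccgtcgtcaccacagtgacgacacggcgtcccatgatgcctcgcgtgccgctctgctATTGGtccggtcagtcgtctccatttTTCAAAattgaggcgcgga
Kif22: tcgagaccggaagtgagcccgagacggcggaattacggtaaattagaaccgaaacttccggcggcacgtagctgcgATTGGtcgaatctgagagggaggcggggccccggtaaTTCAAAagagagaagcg
Top2a: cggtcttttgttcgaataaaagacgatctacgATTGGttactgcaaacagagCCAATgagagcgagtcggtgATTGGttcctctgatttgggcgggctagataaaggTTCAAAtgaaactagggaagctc
Pttg1: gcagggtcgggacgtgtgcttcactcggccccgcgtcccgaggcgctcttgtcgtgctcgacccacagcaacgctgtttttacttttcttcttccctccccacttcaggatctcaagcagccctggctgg

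With the first transcribed base counted as 0, the CHR letters nearest the start begin at position -15 in Cdk1, -18 in Cdc20, -29 in Ube2c, -19 in Kif11, -17 in Kif22 and -23 in Top2a. CCAAT letters lie upstream of them at -48 in Cdk1, -53 in Cdc20, -57 in Ube2c, -45 in Kif11, -54 in Kif22 and -58 in Top2a. Over the whole 300-base window and both strands, TTTGAA was found in 27 of the 35 measured members (77.1%), against 17.3% of the 15613 genes of the table that were measured. CCAAT was found in 27 of 35 (77.1%) against 41.7%, and both in 23 of 35 (65.7%) against 6.89%. TTTGAA within 50 bases of the start was found in 25 of 35 (71.4%) against 4.49%. A CCAAT 20 to 45 bases upstream of a TTTGAA was found in 15 of 35 (42.9%) against 0.961%. The printed members with both motifs all had this spacing. Of the 25, the CHR letters nearest the start lay upstream in these printed members and in Espl1, Kif15 and Prc1. They began downstream, outside the printed window, in Anln, Aurka, Bub1b, Ccnb2, Cdca8, Cenpa, Cenpf and Ect2. The same held for Hmmr, Kif23, Kif4, Ndc80, Plk1, Racgap1, Spc25 and Ttk. The median GC content was 58.0% in the members and 57.5% in all measured genes of the table. Melk, Birc5, Pttg1 and Nuf2 held neither string of letters in this window. A match of letters is a description of the window and not a measured binding site.

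**Figure D1:**
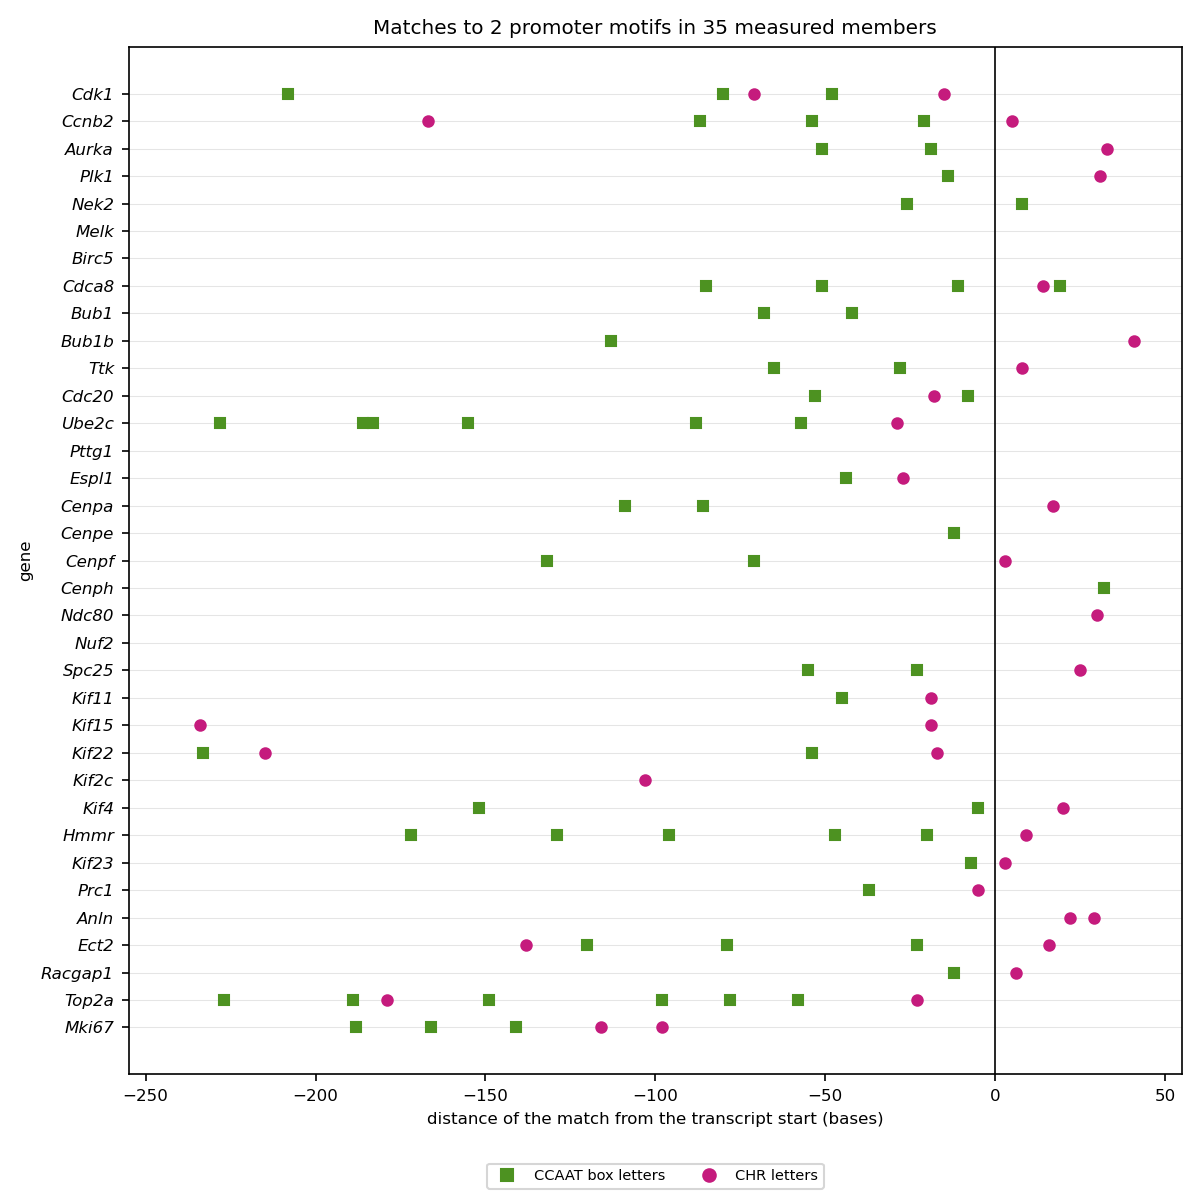
Position of CHR letters (TTTGAA or its complement, circles) and CCAAT box letters (squares) in the promoter window of each of 35 measured members, in bases from the transcript start on the x axis. Circles gather around the start and squares mostly lie upstream of them, while Melk, Birc5, Pttg1 and Nuf2 have no mark. For Prc1 and Ect2, which have several starts in the table, the start with the lower coordinate is drawn.

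The arrays were comparable in scale, with medians over all probe sets between 5.81 and 5.91 on the deposited log2 scale. By list means the sorted cells matched their labels. The 8 measured LT-HSC markers had array means of 8.41 to 8.49 in sorted LT-HSC and 5.56 to 5.71 in sorted GMP. The 8 GMP markers had 6.74 to 7.14 and 10.12 to 10.28. Kit is in both lists, with a mean of 10.38 in sorted LT-HSC and 8.98 in sorted GMP. In the lines, the LT-HSC markers lay between 4.97 and 6.13 and the GMP markers between 9.31 and 9.89. By these means LT-HSC-derived lines did not carry the marker profile of sorted LT-HSC. With dox, their Mecom (7.37 at 48 h and 7.44 at 72 h) lay between sorted LT-HSC (9.05) and sorted GMP (4.55). Angpt1 did so too, at 8.23 and 8.41 beside 11.21 and 6.68. Without dox they also lay between the sorted means, with Mecom at 5.22 (48 h) and 4.79 (72 h) and Angpt1 at 7.90 and 7.08. The other measured LT-HSC markers were near or below their sorted GMP means. Not every GMP marker lay near its sorted GMP mean. In GMP-derived lines Cd34 was 7.74 with dox and 5.67 without, beside 9.03 in sorted GMP. Markers of B cells and of T and NK cells had array means between 4.66 and 4.92 and between 4.19 and 4.50, below every array's median. Among the B cell markers Cd79b lay above the medians, with group means of 6.72 to 7.155. Replicate 1 of the sorted LT-HSC stood apart, with the lowest value of its group for 27 of 41 members, and the no-dox GMP-derived array of line B6-3 had the lowest value of its group for 37 of 41. The counts and medians that rest on these arrays, and the differences with the widest spread, are given with and without them.

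Across the 8 groups, the mitosis and spindle genes were lowest in sorted LT-HSC. The median of the 41 members was 7.69 to 8.10 on the sorted LT-HSC arrays, 8.89 to 9.02 on the sorted GMP arrays, 8.62 to 8.81 on the LT-HSC-derived arrays and 8.78 to 9.02 on the GMP-derived arrays. Sorted LT-HSC had the lowest group mean for 39 of 41 members, the exceptions being Pttg1 and Cenph. The highest group mean fell in sorted GMP for 21 members, in GMP-derived lines for 15 and in LT-HSC-derived lines for 5. The members also varied more between sorted LT-HSC arrays, with a median SD of 0.234 against 0.065 to 0.122 in the other groups. In RNA from many cells, fewer cycling cells and less of the message in each cell cannot be told apart.

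**Figure D2:**
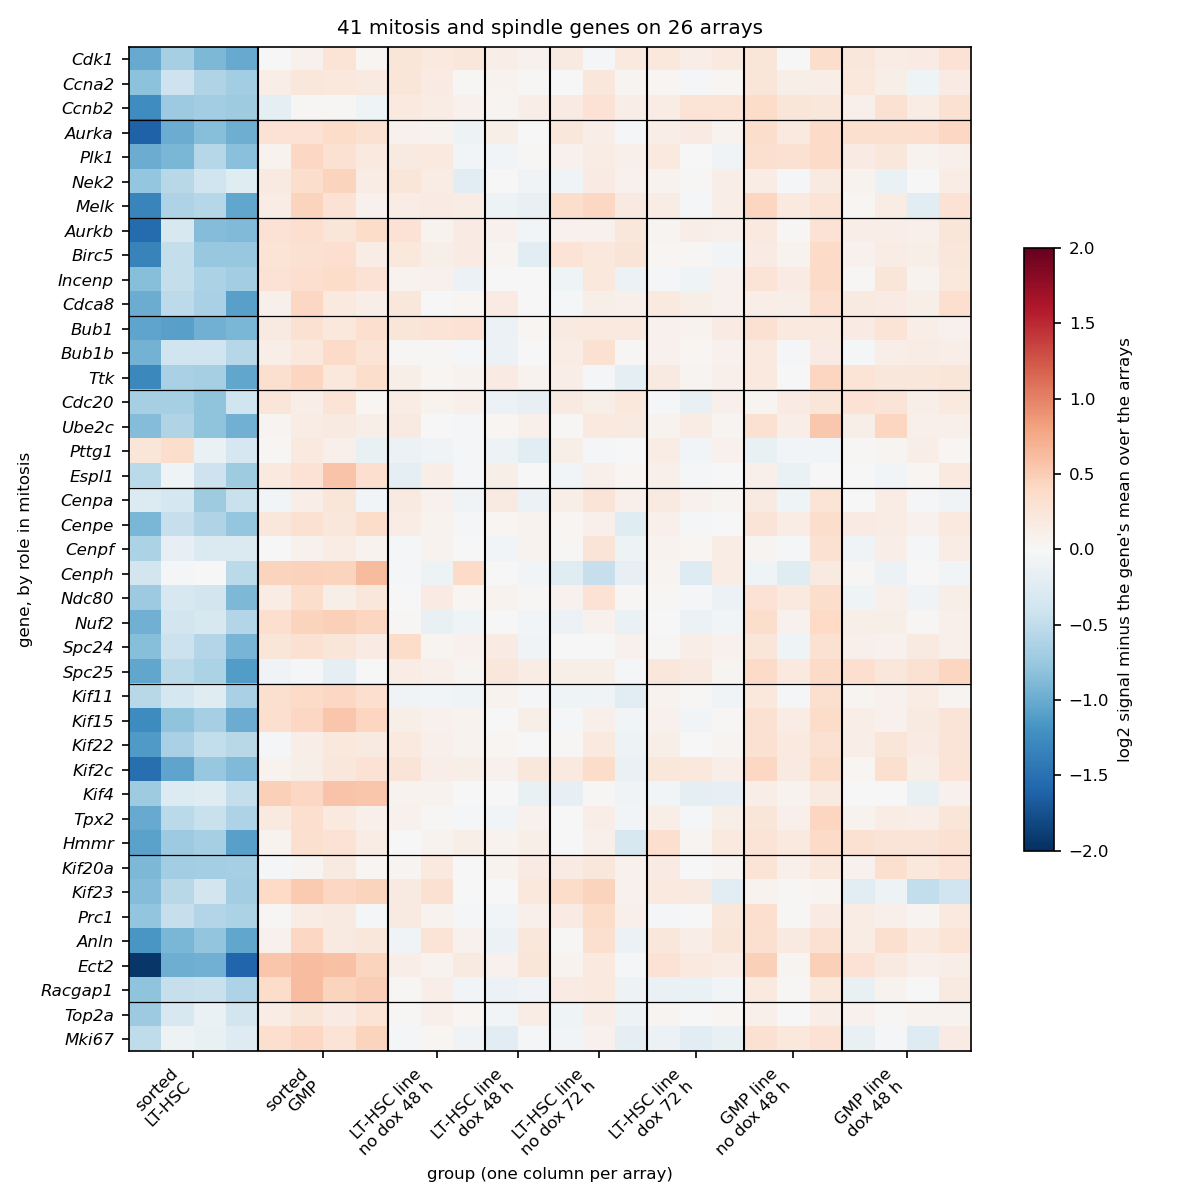
Signal of 41 members (rows, by role) on 26 arrays (columns, by group) as log2 signal minus the gene's mean over all arrays, blue below and red above it. The 4 sorted LT-HSC columns are blue for nearly every gene except Pttg1, and the other 22 columns are paler or red for most genes.

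The first comparison set the wild-type cells, GMP and LT-HSC, side by side (n = 4 and 4, 2-sided limma test over all genes). Of 41 members 40 were higher in GMP and none was lower at an adjusted p under 0.05, against 16.8% of all genes called higher and 15.3% called lower. For the same 40 members every GMP array lay above every LT-HSC array, which held for 16.1% of all genes. The median difference of the members was 0.94 log2, and that of all genes was -0.009. Without LT-HSC replicate 1 the median was 0.85 and the count stayed at 40. The labels call the sorted arrays biological replicates. No label states whether each is its own animal, so p-values measure only spread between arrays. The fit pooled that spread over all 8 groups. Sorted LT-HSC arrays varied more, with a median SD of 0.234 against 0.065 to 0.122 in the other groups. The SE of these differences therefore draws partly on less variable groups. With only the sorted groups fitted, no member's call changed.

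Among the genes of mitotic entry, Cdk1, the kinase that drives cells into mitosis, read 8.37, 8.71, 8.49 and 8.37 in LT-HSC and 9.39, 9.46, 9.65 and 9.43 in GMP. The GMP arrays were all higher, by 1.00 ± 0.08 (SE, adjusted p = 5.34e-10), about 2.00-fold. Ccna2 (cyclin A2) was higher by 0.82 ± 0.08 and Ccnb2 (cyclin B2), a partner of Cdk1, by 0.79 ± 0.09. All 3 measured members of this role were called.

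All 4 mitotic kinases were higher in GMP. Aurka, the kinase of the spindle poles, read 6.98, 7.60, 7.74 and 7.62 in LT-HSC and 8.89, 8.89, 8.97 and 8.91 in GMP. The GMP arrays hardly varied and the LT-HSC arrays did, with replicate 1 the lowest, and the groups did not overlap, with a difference of 1.43 ± 0.11 (SE, adjusted p = 1.11e-10). Without replicate 1 the Aurka difference was 1.26. Plk1, which acts on centrosomes, kinetochores and the cleavage site, read 6.70, 6.77, 7.12 and 6.86 against 7.75, 8.10, 7.99 and 7.89, a difference of 1.07 ± 0.09 (SE, adjusted p = 4e-10) with no overlap. Melk differed by 1.12 ± 0.13 and Nek2, a kinase of centrosome separation, by 0.78 ± 0.11.

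The chromosomal passenger complex corrects faulty attachments of chromosomes to the spindle, and its 4 genes were all higher in GMP, by 0.98 to 1.21. Its kinase Aurkb read 7.13, 8.35, 7.79 and 7.78 in LT-HSC and 8.96, 8.999, 8.92 and 9.04 in GMP. Aurkb had the largest SD of any member in sorted LT-HSC, 0.50, against 0.05 in GMP, and differed by 1.21 ± 0.14 (SE, adjusted p = 1.96e-07), or 1.001 without replicate 1. Birc5 (survivin) read 8.11, 8.98, 8.69 and 8.70 against 9.72, 9.77, 9.79 and 9.61 and differed by 1.10 ± 0.11 (SE, adjusted p = 2.81e-08). The scaffold Incenp differed by 0.98 ± 0.08 and Cdca8 (borealin) by 1.02 ± 0.10.

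The spindle checkpoint kinases, which hold anaphase back until every kinetochore is attached, included the member with the lowest adjusted p. Bub1 read 8.46, 8.42, 8.54 and 8.59 in LT-HSC and 9.70, 9.81, 9.72 and 9.85 in GMP, with a difference of 1.27 ± 0.06 (SE, adjusted p = 1.4e-14), and here LT-HSC replicate 1 did not stand apart. Bub1b (BubR1) read 8.03, 8.58, 8.57 and 8.40 against 9.10, 9.19, 9.34 and 9.24 and differed by 0.82 ± 0.10 (SE, adjusted p = 1.44e-07). Ttk, the kinase at the head of the checkpoint, differed by 1.24 ± 0.11 (SE, adjusted p = 1.82e-09).

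Sister separation held the only member that was not called. Pttg1, securin, which holds the protease separase in check until anaphase, read 9.44, 9.54, 9.07 and 8.87 in LT-HSC and 9.22, 9.39, 9.29 and 9.05 in GMP. The GMP values lie inside the range of the LT-HSC values, and the difference was 0.01 ± 0.10 (95% interval -0.20 to 0.23). Its partner Espl1, separase itself, was higher in GMP by 0.79 ± 0.10 (SE, adjusted p = 1.21e-06). Cdc20, which activates the anaphase-promoting complex (APC/C), read 7.10, 7.09, 6.95 and 7.37 against 8.01, 7.89, 8.03 and 7.80 and differed by 0.81 ± 0.08 (SE, adjusted p = 7.41e-09). Ube2c, the ubiquitin-conjugating enzyme of the APC/C, read 7.03, 7.30, 7.09 and 6.93 against 7.96, 8.04, 8.08 and 8.02, a difference of 0.94 ± 0.09 (SE, adjusted p = 7.53e-09) with no overlap.

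All 8 centromere and kinetochore members were higher in GMP, by 0.43 to 0.98, with a median of 0.77. Cenpa, the centromeric histone variant, read 7.94, 7.85, 7.50 and 7.76 in LT-HSC and 8.15, 8.35, 8.45 and 8.15 in GMP. The groups did not overlap, and the difference of 0.51 ± 0.10 (SE, adjusted p = 0.000188) was among the smaller ones. Ndc80, the microtubule-binding subunit that gives the Ndc80 complex its name, read 8.37, 8.78, 8.72 and 8.21 against 9.24, 9.44, 9.22 and 9.32 and differed by 0.78 ± 0.10 (SE, adjusted p = 5.88e-07). The other subunits of that complex differed by 0.98 ± 0.10 (Nuf2), 0.94 ± 0.10 (Spc24) and 0.76 ± 0.10 (Spc25). Cenpf, with 0.42 ± 0.09 (SE, adjusted p = 0.000673), was the smallest difference that was called.

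All 7 spindle motors and assembly factors were higher in GMP. Kif11, the motor that pushes spindle poles apart, read 9.40, 9.61, 9.72 and 9.31 in LT-HSC and 10.28, 10.33, 10.37 and 10.30 in GMP, a difference of 0.81 ± 0.08 (SE, adjusted p = 8.79e-09). Kif15, a motor that can share this task, differed more, by 1.36 ± 0.09 (SE, adjusted p = 1.09e-11). Tpx2, which activates Aurka and nucleates spindle microtubules, read 7.69, 8.15, 8.24 and 8.06 against 8.88, 9.02, 8.88 and 8.80 and differed by 0.86 ± 0.09 (SE, adjusted p = 6.1e-08). Kif2c, a microtubule depolymerase, differed by 1.22 ± 0.12, Hmmr by 1.09 ± 0.10, Kif4 by 0.94 ± 0.08 and Kif22 by 0.83 ± 0.10.

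The largest difference of all lay in cytokinesis. Ect2, the exchange factor that switches on RhoA at the cleavage site, read 6.47, 7.44, 7.45 and 6.83 in LT-HSC and 8.98, 9.04, 9.002 and 8.86 in GMP. Its difference of 1.92 ± 0.15 (SE, adjusted p = 1.42e-10) amounts to 3.79-fold, and the LT-HSC values spread widely, with replicate 1 the lowest. Without that replicate the difference was 1.73. Kif20a, a motor of the central spindle, read 6.33, 6.52, 6.54 and 6.55 against 7.17, 7.28, 7.40 and 7.25 and differed by 0.79 ± 0.07 (SE, adjusted p = 2.51e-09). Prc1, which bundles the microtubules of the central spindle, read 7.74, 8.06, 7.94 and 7.90 against 8.55, 8.68, 8.71 and 8.51 and differed by 0.70 ± 0.09 (SE, adjusted p = 3.42e-07). Anln (anillin) differed by 1.21 ± 0.10, and Kif23 and Racgap1, which together form centralspindlin, by 1.06 ± 0.11 and 1.06 ± 0.09.

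Top2a and Mki67, the usual histological markers of dividing cells, had some of the smaller differences. Top2a, which untangles sister chromatids, read 9.98, 10.40, 10.58 and 10.34 in LT-HSC and 10.86, 10.96, 10.88 and 10.99 in GMP, a difference of 0.59 ± 0.09 (SE, adjusted p = 5.41e-06). Mki67 (Ki-67), which coats mitotic chromosomes, read 9.47, 9.88, 9.82 and 9.72 against 10.31, 10.39, 10.24 and 10.42, a difference of 0.62 ± 0.09 (SE, adjusted p = 4.24e-06). Neither pair of groups overlapped.

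**Figure D3:**
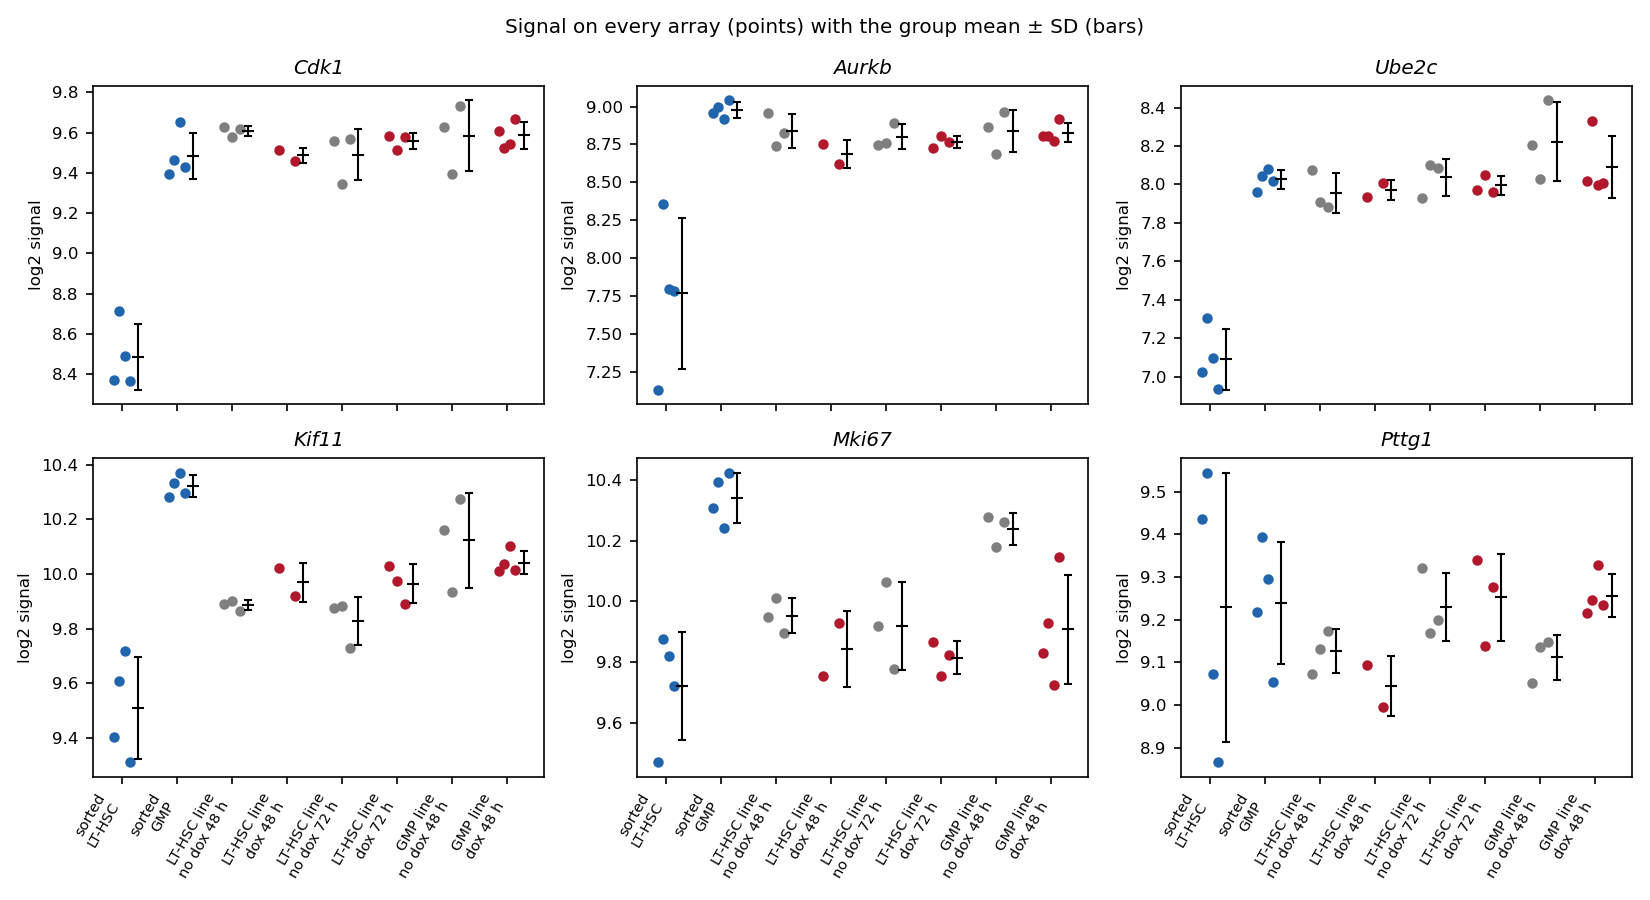
Log2 signal of Cdk1, Aurkb, Ube2c, Kif11, Mki67 and Pttg1 on every array (points: blue sorted, red with dox, grey without dox) with the group mean ± SD (bars), each panel on its own y axis. The 4 sorted LT-HSC arrays are the lowest of the Cdk1, Aurkb, Ube2c and Kif11 panels, and in the Pttg1 panel they span the range of the other groups.

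The immortalized lines at 48 h were compared with their sorted cell of origin. The labels call only the sorted cells wild type, so genotype, immortalization and culture cannot be told apart in these comparisons. In LT-HSC-derived lines with dox 38 of 41 members were higher than in sorted LT-HSC and none was lower (n = 2 and 4), against 14.6% of all genes called higher. In the same lines without dox the count was again 38 and 0 (n = 3 and 4), against 17.1% called higher. The median difference was 0.73 with dox and 0.78 without it. The members that were not called were Pttg1, Cenph and Mki67 in both comparisons, which share the sorted LT-HSC arrays. Without sorted LT-HSC replicate 1 the medians were 0.62 and 0.72.

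Markers of other blood cells differed in the same comparisons. There, 14.6% of all genes were called higher and 14.6% lower with dox, and 17.1% and 18.1% without. Array means of the late neutrophil list were 6.06 to 7.24 in sorted LT-HSC, 8.51 to 8.64 in the lines with dox and 8.99 to 9.87 without, with 5 and 7 of 8 genes higher. The mast cell and basophil list read 5.58 to 5.91, 7.64 to 7.84 and 7.97 to 9.55, with 4 and 5 of 6 higher and 1 lower. The macrophage list read 5.51 to 5.71, 6.47 to 6.50 and 7.36 to 7.60, with 3 and 4 of 6 higher. The megakaryocyte list was lower in 4 of 4 genes in both, at 7.81 to 8.19, 5.92 to 6.09 and 6.05 to 6.62. In sorted GMP, too, 5 of 6 mast cell and basophil genes and 4 of 6 macrophage genes were higher than in sorted LT-HSC, against 16.8% of all genes. There 4 of 4 megakaryocyte genes were lower, against 15.3%. The part of these cells in the members' differences was not tested.

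Over all conditions and times, each of the 18 cultured arrays lay above each sorted LT-HSC array for 36 of 41 members, which held for 9.55% of all genes. The count was also 36 without sorted LT-HSC replicate 1 (10.3% of all genes) and without the no-dox GMP-derived array of B6-3 (9.91%), alternatives chosen after seeing the data. Cdk1 read 9.34 to 9.73 over the cultured arrays, Aurka 8.50 to 9.01, Aurkb 8.62 to 8.96 and Plk1 7.62 to 8.07. These ranges sit well above the sorted LT-HSC values of the same genes. Ect2 again had the largest difference, 1.53 ± 0.18 (SE, adjusted p = 2.87e-07) with dox and 1.49 ± 0.16 (SE, adjusted p = 3.75e-08) without it. Next with dox came Kif2c (1.21 ± 0.15), Aurka (1.18 ± 0.13) and Anln (1.04 ± 0.12), and without dox Bub1 (1.27 ± 0.06), Kif2c (1.22 ± 0.13) and Aurka (1.13 ± 0.12). The 5 members whose cultured arrays overlapped sorted LT-HSC were Pttg1, Espl1, Cenph, Kif23 and Mki67.

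Mki67, Pttg1 and Cenph were the members not called. For Mki67 the values in LT-HSC-derived lines at 48 h were 9.75 and 9.93 with dox and 9.95, 10.01 and 9.90 without dox, beside the 9.47, 9.88, 9.82 and 9.72 of sorted LT-HSC. The difference was 0.12 ± 0.11 (SE, adjusted p = 0.481) with dox and 0.23 ± 0.10 (SE, adjusted p = 0.0665) without it, and the dox arrays overlapped the sorted ones. Without dox it was called under 4 alternatives (adjusted p = 0.0327 to 0.048). Top2a, its companion as a marker of dividing cells, was called in both, at 0.44 ± 0.11 (SE, adjusted p = 0.00233) and 0.45 ± 0.09 (SE, adjusted p = 0.000493). The Top2a call with dox was lost without line B6-3 (adjusted p = 0.0837) and with only these groups fitted (0.0644). Cenph read 9.24, 9.57, 9.61 and 9.06 in sorted LT-HSC, 9.60 and 9.55 with dox and 9.56, 9.50 and 9.98 without. These overlapped with dox and without, and the difference was 0.21 ± 0.15 (95% interval -0.11 to 0.52) and 0.31 ± 0.13 (95% interval 0.04 to 0.58), called without dox when sorted LT-HSC replicate 2 or 3 or line B6-3 was left out (adjusted p = 0.0303 to 0.0442). Pttg1 differed by -0.19 ± 0.13 (95% interval -0.45 to 0.08) and -0.10 ± 0.11 (95% interval -0.33 to 0.13). With dox it was called lower when sorted LT-HSC replicate 4 was left out (-0.307, adjusted p = 0.0395).

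GMP-derived lines, by contrast, lay near sorted GMP in most members, but with dox more members were lower than the share of all genes. With dox, 2 of 41 members were higher (4.88%) and 9 lower (22.0%) (n = 4 and 4). Of all genes 10.0% were higher and 9.76% lower (19.8% in all). By sign, 28 members lay below 0 with dox and 13 above. Without dox, 2 were higher (4.88%) and 5 lower (12.2%) (n = 3 and 4), against 10.8% and 12.7% of all genes. At an unadjusted p under 0.05 the counts were 3 and 12 with dox (29.6% of all genes in either direction) and 2 and 6 without (32.5%). The median difference was -0.11 with dox and -0.03 without it. The 95% interval lay within 0.5 log2 of zero for 32 of 41 members with dox and 33 without. Without the no-dox array of line B6-3 the latter median was 0.015.

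Centralspindlin was lower in the lines in both its parts. Kif23 read 9.82, 9.94, 9.83 and 9.87 in sorted GMP, 9.20, 9.32, 8.93 and 9.03 in GMP-derived lines with dox and 9.49, 9.45 and 9.48 without dox. No cultured GMP-derived array reached the sorted range, and the difference was -0.75 ± 0.11 (SE, adjusted p = 2e-05) with dox and -0.40 ± 0.12 (SE, adjusted p = 0.0167) without it. Racgap1 read 8.08, 8.32, 8.14 and 8.21 in sorted GMP, 7.55, 7.78, 7.71 and 7.89 with dox and 7.91, 7.74 and 7.92 without, and differed by -0.45 ± 0.09 (SE, adjusted p = 0.000457) and -0.33 ± 0.09 (SE, adjusted p = 0.0108). The calls for Kif23 and Racgap1 without dox were lost when line B6-3 was left out (adjusted p = 0.0589 and 0.0799).

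Cenph, a subunit of the constitutive centromere network, and the chromokinesin Kif4 were also lower in the lines. Cenph read 10.04, 10.06, 10.05 and 10.24 in sorted GMP, 9.62, 9.48, 9.60 and 9.54 with dox and 9.52, 9.36 and 9.78 without, a difference of -0.54 ± 0.12 (SE, adjusted p = 0.00233) and -0.55 ± 0.13 (SE, adjusted p = 0.00339), so the lines with and without dox hardly differed. Kif4 differed by -0.52 ± 0.08 (SE, adjusted p = 4.47e-05) with dox and -0.37 ± 0.09 (SE, adjusted p = 0.0028) without. Espl1 was also lower in both, by -0.31 ± 0.10 and -0.36 ± 0.11, with calls that were lost without any of 5 of the 8 arrays with dox and 3 of the 7 without. Nuf2, Kif11, Kif15 and Mki67 were called lower with dox and not without it, at -0.33, -0.28, -0.27 and -0.43, against -0.14, -0.20, -0.16 and -0.10 without dox. Of these, Mki67 alone was called in the dox contrast below, which tests that difference. The Kif15 call was lost with median centring (adjusted p = 0.0516) and without any of 6 of the 8 arrays (0.0555 to 0.111), and the Nuf2 call without GMP replicate 3 or line F6-6 (0.0522 and 0.0548). Kif11 was called lower without dox when line F6-6 was left out (-0.275, adjusted p = 0.0359).

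Ccnb2 and Spc25 went the other way. Ccnb2 read 9.49, 9.71, 9.72 and 9.59 in sorted GMP, 9.79, 9.99, 9.84 and 9.98 in the lines with dox and 10.06, 9.93 and 9.92 without. It was the only member with every cultured array, LT-HSC-derived ones included, above every sorted GMP array, which held for 3.46% of all genes, and it differed by 0.27 ± 0.09 (SE, adjusted p = 0.0399) and 0.34 ± 0.10 (SE, adjusted p = 0.0146). The call with dox was lost without GMP replicate 1 or 4, without line B6-3 or B6-1 (adjusted p = 0.089 to 0.135) and with quantile normalization (0.0944), and without dox when GMP replicate 1 or line B6-2 was left out (0.0537 and 0.0748). Spc25 read 8.56, 8.62, 8.45 and 8.65 in sorted GMP, 8.97, 8.87, 8.94 and 9.07 with dox and 9.02, 8.83 and 9.02 without, and differed by 0.39 ± 0.10 (SE, adjusted p = 0.00434) and 0.39 ± 0.10 (SE, adjusted p = 0.00804). Within the Ndc80 complex, then, Spc25 was higher, Nuf2 was lower with dox, and Ndc80 and Spc24 were not called (-0.19 ± 0.10 and -0.12 ± 0.10 with dox).

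Over all 18 cultured arrays, 5 members lay below every sorted GMP array: Espl1, Cenph, Kif11, Kif4 and Racgap1, against 4.69% of all genes, and as many without either of those arrays. Kif11 read 9.73 to 10.28 in culture beside 10.28, 10.33, 10.37 and 10.30 in sorted GMP. Kif4 read 8.20 to 8.57 beside 8.86, 8.80, 8.96 and 8.93. The cultured arrays of Tpx2 (8.63 to 9.11), Prc1 (8.48 to 8.90), Kif20a (7.23 to 7.54), Ube2c (7.88 to 8.44), Bub1b (8.86 to 9.28), Cenpa (8.09 to 8.48), Ndc80 (8.98 to 9.45), Birc5 (9.24 to 9.84) and Top2a (10.61 to 10.87) overlapped the sorted GMP values.

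**Figure D4:**
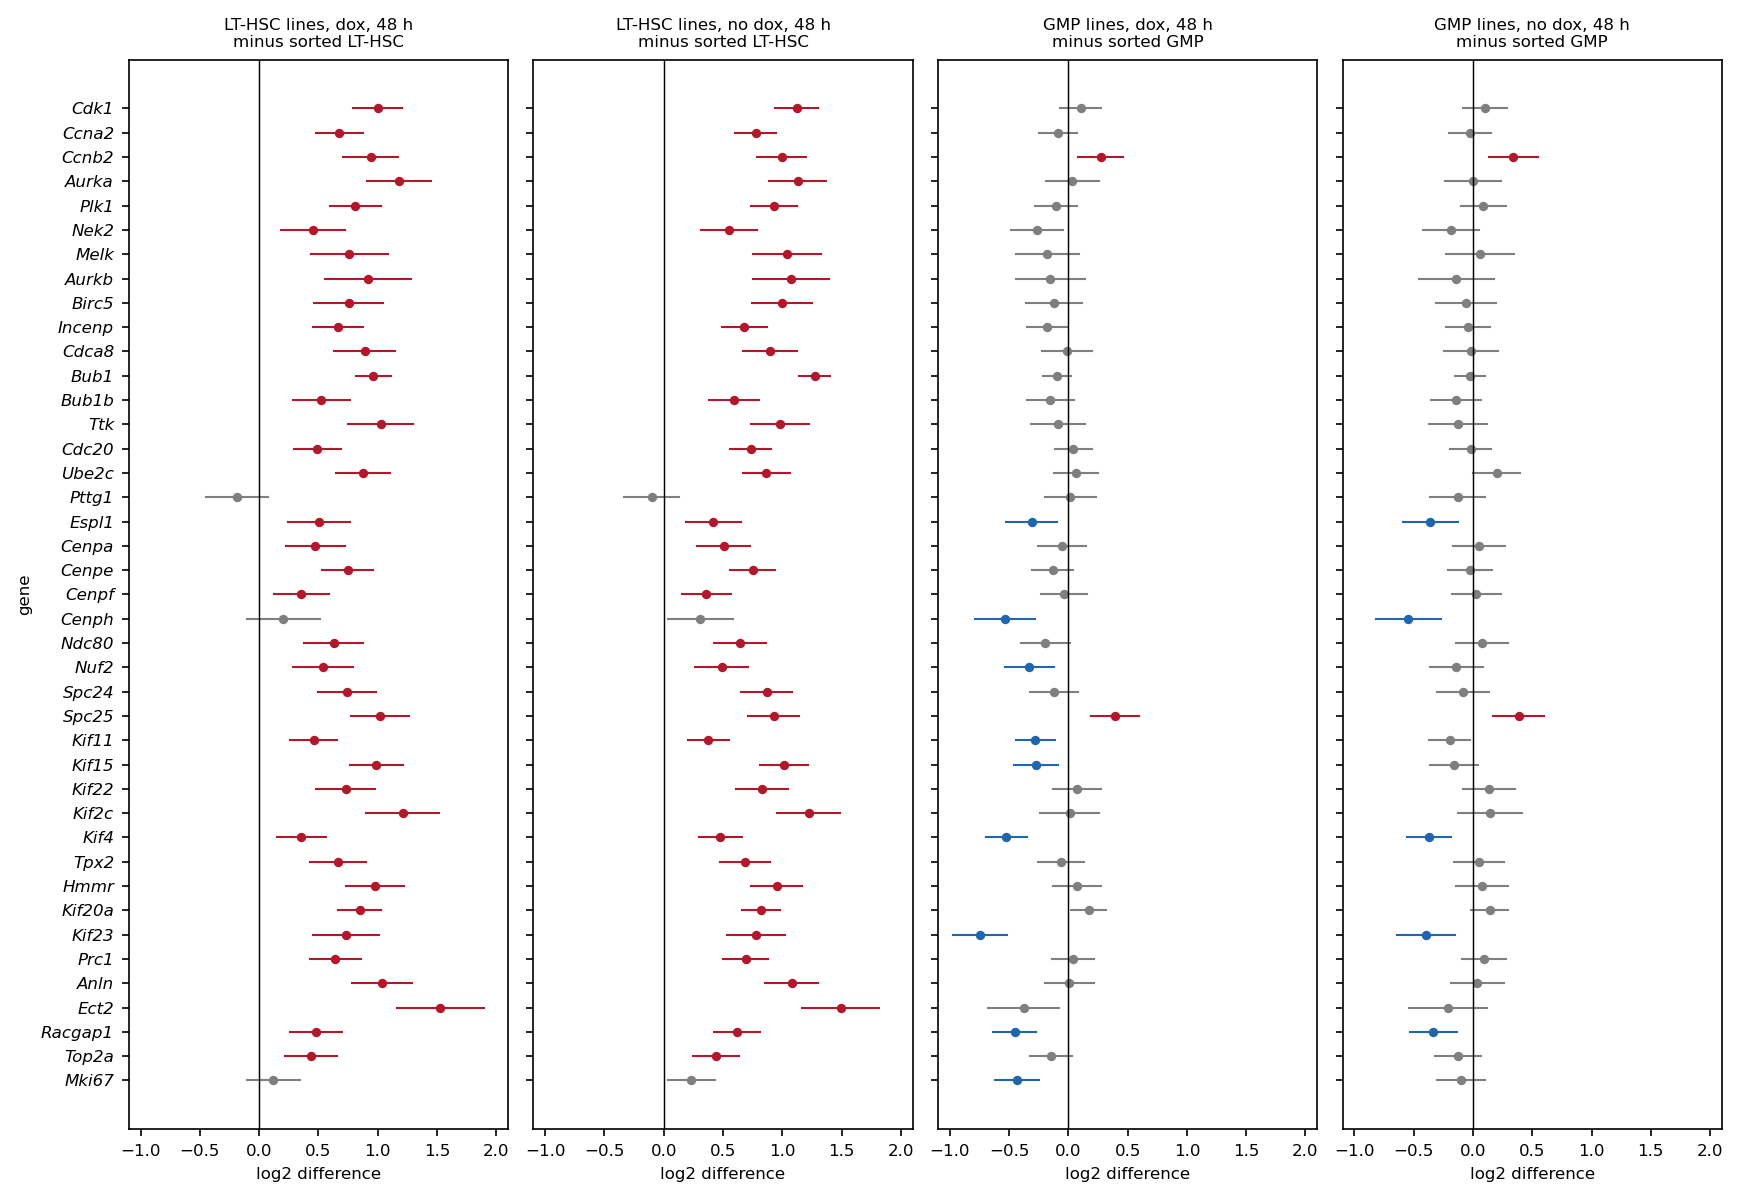
Log2 difference (x axis) of each member between lines at 48 h and their sorted cell of origin, with 95% intervals; red points were called higher, blue lower and grey not called at an adjusted p under 0.05. In the LT-HSC panels 38 of 41 points are red, and in the GMP panels most are grey, with Ccnb2 and Spc25 red and Kif23, Cenph, Kif4, Racgap1 and Espl1 blue in both.

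Dox was compared with no dox in the lines to describe these genes in either condition. No member was called in LT-HSC-derived lines at 48 h (n = 2 and 3), where 0.441% of all genes were called by limma in either direction, and 2 members had an unadjusted p under 0.05, both lower with dox, against 7.3% of all genes. None was called at 72 h (n = 3 and 3), against 3.43% of all genes called higher and 3.72% called lower (7.15% in all), with 1 higher and 1 lower at an unadjusted p under 0.05, against 20.2%. In GMP-derived lines at 48 h 1 member was lower and none was higher (n = 4 and 3), against 5.18% of all genes called lower and 5.75% called higher (10.9% in all). The median difference of the members was -0.04, 0.008 and -0.07 in these comparisons. Every member's 95% interval lay within 1 log2 of zero in each of them, and within 0.5 for 38, 37 and 38 of 41.

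The member that was called was Mki67 in GMP-derived lines. It read 9.83, 9.93, 9.72 and 10.15 with dox and 10.28, 10.18 and 10.26 without, in the line order B6-2, B6-3, F6-6 and, with dox only, B6-1. All 4 dox arrays lay below the 3 others, by -0.33 ± 0.10 (SE, adjusted p = 0.0248), and in each line with both arrays the dox array was lower, with differences of -0.45 in B6-2, -0.25 in B6-3 and -0.54 in F6-6. The call was lost when any of 5 of the 7 arrays was left out (adjusted p = 0.054 to 0.0967) and when only these groups were fitted (0.0747). With the line as a block, 3 members were lower with dox: Mki67, Ndc80 (-0.30, adjusted p = 0.0366) and Kif23 (-0.32, adjusted p = 0.0297).

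Markers of mature myeloid cells moved in the same comparison. Of 8 late neutrophil markers 6 were lower with dox and none was higher, against 5.18% of all genes called lower and 5.75% called higher. Their median difference was -2.32, with array means of 7.84 to 8.15 with dox and 10.37 to 10.43 without. The defining secondary granule gene Ltf had a mean of 5.48 with dox, below the array medians, and 10.29 without. Of 6 macrophage markers 4 were lower, with array means of 6.07 to 6.91 and 6.93 to 7.97. The part of these cells in the Mki67 difference was not tested. In LT-HSC-derived lines 4 of 8 late neutrophil and 4 of 6 macrophage markers were lower with dox at 72 h, against 3.72% of all genes. The neutrophil means there were 8.25 to 8.99 with dox and 9.16 to 10.54 without, and the part of these cells in the members' values was not tested.

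The other members named for size were not called. In GMP-derived lines the largest was Kif23, 9.20, 9.32, 8.93 and 9.03 with dox and 9.49, 9.45 and 9.48 without, at -0.35 ± 0.12 (95% interval -0.60 to -0.10) with an adjusted p of 0.0614. Ndc80 followed at -0.27 ± 0.11 (95% interval -0.49 to -0.05) and Melk at -0.24 ± 0.14 (95% interval -0.52 to 0.05). Cdk1 (0.00 ± 0.09 (95% interval -0.18 to 0.18)) and Cdca8 (0.00 ± 0.11 (95% interval -0.23 to 0.23)) differed least. In LT-HSC-derived lines at 48 h the largest was Bub1, 9.39 and 9.54 with dox and 9.76, 9.78 and 9.79 without, which did not overlap and differed by -0.31 ± 0.07 (95% interval -0.47 to -0.16) with an adjusted p of 0.0715. Bub1 was called under 2 of the alternatives, and Melk (-0.28 ± 0.17 (95% interval -0.62 to 0.07)), Cdc20 (-0.24 ± 0.10 (95% interval -0.45 to -0.04)) and Birc5 (-0.24 ± 0.15 (95% interval -0.55 to 0.06)) came next. At 72 h the largest were Cenph (0.27 ± 0.14 (95% interval -0.02 to 0.56)), Hmmr (0.27 ± 0.11 (95% interval 0.03 to 0.50)), Birc5 (-0.25 ± 0.13 (95% interval -0.52 to 0.03)) and Kif23 (-0.24 ± 0.13 (95% interval -0.50 to 0.03)).

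Single lines differed in direction. Of the 8 pairs of arrays from 1 line, origin and time, the members were mostly lower with dox in 5 and mostly higher in 3. The LT-HSC-derived lines B6-2 and B6-3 gave a pair at each time, so the pairs are not independent. In GMP-derived lines 39 of 41 members were lower with dox in F6-6 (median -0.20) and 35 in B6-2 (-0.15), but 33 were higher in B6-3 (0.07), whose no-dox array was the one with low values. In LT-HSC-derived lines at 72 h 33 were lower in B6-3 (-0.16), and 25 and 27 were higher in B6-1 and B6-2 (0.06 and 0.04). At 48 h 30 were lower in B6-2 (-0.10) and 25 in B6-3 (-0.05). Melk and Kif23 were lower with dox in 8 of 8 pairs, with Melk at -0.495 to -0.046 and Kif23 at -0.547 to -0.089. How many of all genes were lower in every pair was not counted. Over the replicates neither was called in any dox comparison as fitted, and Kif23 was called in GMP-derived lines under 6 alternatives (adjusted p = 0.0297 to 0.0465). Ttk and Cenph were lower in only 1 of 8. Without the no-dox array of B6-3 the median of the GMP-derived comparison was -0.13 and no member was called.

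**Figure D5:**
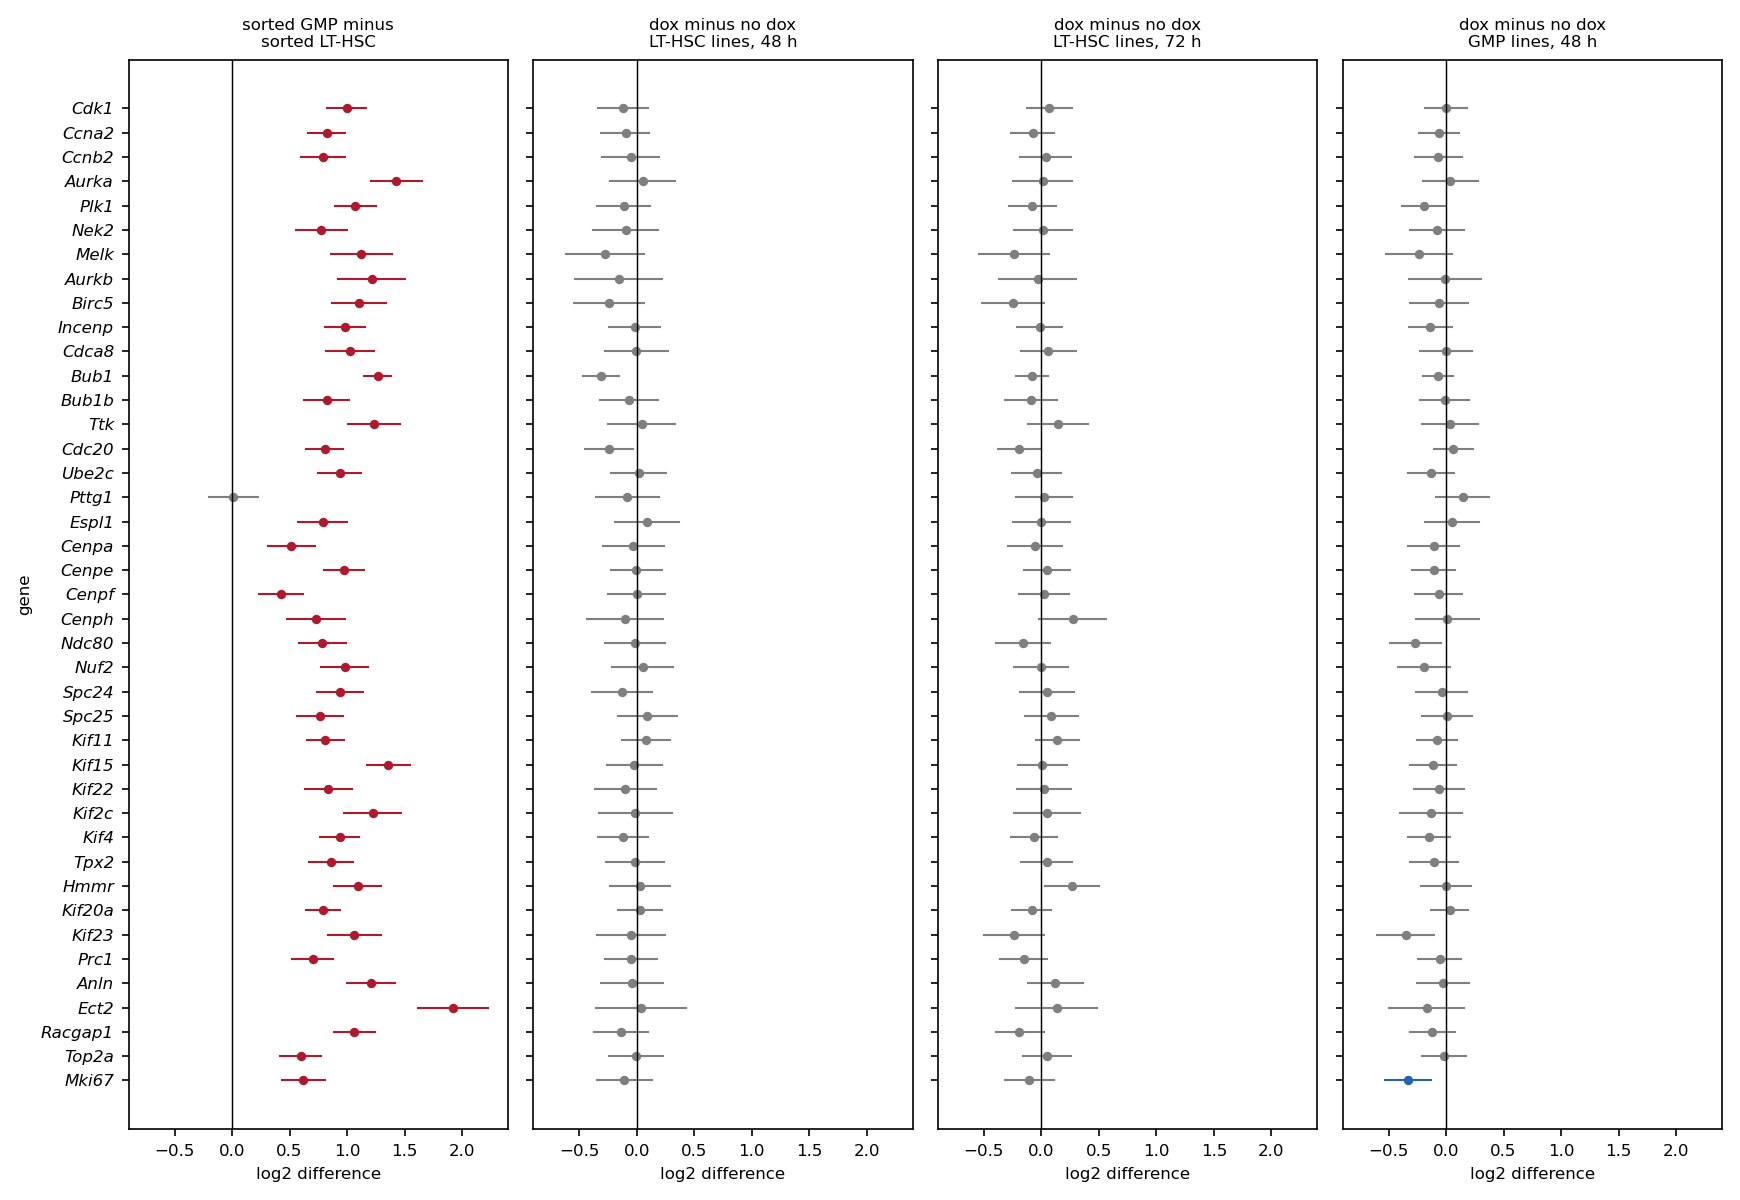
Log2 difference (x axis) of each member in sorted GMP over sorted LT-HSC and in the 3 dox comparisons, with 95% intervals; red was called higher, blue lower and grey not called at an adjusted p under 0.05. The first panel has 40 red points, and the dox panels have a single blue one, Mki67 in GMP-derived lines.

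Time and origin were compared next. Between 72 h and 48 h no member was called with dox, where no gene of all was called (0.0%), or without dox, where 0.181% were (0.12% higher and 0.0602% lower). At an unadjusted p under 0.05 the counts were 0 and 1, against 2.26% and 13.0% of all genes. The largest differences were Pttg1 with dox, 0.21 ± 0.13 (95% interval -0.07 to 0.48), and Cenph without, -0.36 ± 0.14 (95% interval -0.66 to -0.07). The dox effect did not differ detectably between GMP-derived and LT-HSC-derived lines at 48 h for any member (0 called, 2 at an unadjusted p under 0.05, 0.231% of all genes called and 8.74% at that unadjusted p), nor between 72 h and 48 h (0 called, 1 at an unadjusted p under 0.05, against 0.0% and 5.68% of all genes). The widest intervals of these differences reached from -0.71 (Ect2) to 0.64 (Aurkb) between origins and from -0.59 (Kif23) to 0.81 (Cenph) between times.

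Between lines of different origin, Cdc20 was higher in GMP-derived than in LT-HSC-derived lines with dox and was the only member called, against 0.943% of all genes called higher and 1.17% lower (2.11% in all). It read 8.04, 8.01, 7.88 and 7.96 in GMP-derived and 7.64 and 7.60 in LT-HSC-derived lines, a difference of 0.35 ± 0.09 (SE, adjusted p = 0.0482). That call was lost with the line name as a block (adjusted p = 0.061), in 3 other alternatives and without 5 of the 6 arrays. The largest difference, not called, was Kif23 at -0.41 ± 0.14 (95% interval -0.69 to -0.13), followed by Aurka (0.28 ± 0.13 (95% interval 0.01 to 0.55)) and Birc5 (0.22 ± 0.14 (95% interval -0.07 to 0.51)). With dox 36 of 41 members lay above 0 (median 0.11). At an unadjusted p under 0.05, 3 were higher and 1 lower with dox, against 10.0% of all genes. Without dox no member was called, against 6.8% of all genes (3.28% higher and 3.52% lower). At an unadjusted p under 0.05, 8 of 41 were higher without dox, against 17.8% of all genes in either direction. Without dox, too, most members lay above 0 (34 of 41, median 0.11). Nuf2 was first at 0.35 ± 0.12 (95% interval 0.11 to 0.59) with an adjusted p of 0.0698, then Aurka (0.30 ± 0.12 (95% interval 0.04 to 0.55)), Mki67 (0.29 ± 0.10 (95% interval 0.07 to 0.50)) and Ube2c (0.27 ± 0.10 (95% interval 0.05 to 0.48)). Without the low array of B6-3 the median was 0.17 and Nuf2 and Kif11 were called (adjusted p = 0.0383 and 0.0423). All 6 mast cell and basophil markers were lower in GMP-derived lines in this comparison, with array means of 5.56 to 7.30 against 7.97 to 9.55, and their part in it was not tested.

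Other genes of the same machinery were read from lists of general knowledge, chosen with earlier results of these data known. Their counts are therefore a description and not independent support. In sorted GMP against LT-HSC, 16.8% of all genes were called higher and 15.3% lower. Of 29 other kinetochore and checkpoint genes 24 were higher and 1 lower (median 0.65). The largest were Sgo2a, a guardian of centromeric cohesion, at 1.42 ± 0.11, and Ska1, a microtubule-binding kinetochore protein, at 1.08 ± 0.12, and the lower one was Cenpt. Of 31 other spindle and centrosome genes 28 were higher and 2 lower (median 0.63), led by Depdc1a (1.64 ± 0.27) and the centriole assembly factor Stil (1.43 ± 0.09), with Numa1 and Psrc1 lower. The genes of the entry switch gave 10 higher and 2 lower of 15 (median 0.67), with the histone kinase Haspin at 1.22 ± 0.11 and Ccnf at 0.96 ± 0.08.

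The remaining lists hold genes that also act outside mitosis. Their counts are for the same comparison, with 16.8% of all genes called higher and 15.3% lower. Of 17 condensin and cohesin genes 8 were higher and none lower (median 0.08), led by the cohesion factor Cdca5 (1.36 ± 0.13) and the condensin subunit Ncaph (1.16 ± 0.10). Of 16 APC/C subunits and regulators 8 were higher and none lower (median 0.20), led by Anapc15 (0.98 ± 0.09) and the APC/C inhibitor Fbxo5 (0.62 ± 0.08). Of 29 replication genes 24 were higher and none lower (median 0.47), led by Rrm2 (1.52 ± 0.12) and Gins1 (1.30 ± 0.12).

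The factors that act on CHR and CCAAT promoters did not all follow the members. Mybl2 had group means of 6.40 in sorted LT-HSC, 7.40 in sorted GMP and 7.18 to 7.50 in the lines, and was higher in GMP by 0.99 ± 0.11 (SE, adjusted p = 1.04e-07). Foxm1 had 7.02 in sorted LT-HSC, 7.82 in sorted GMP and 7.17 to 7.58 in the lines, and was higher in GMP by 0.81 ± 0.09 (SE, adjusted p = 1.73e-07). In LT-HSC-derived lines Mybl2 was above sorted LT-HSC (1.00 ± 0.14 with dox and 1.00 ± 0.12 without), but Foxm1 was not called (0.15 ± 0.12 and 0.17 ± 0.10). Lin54, the DNA-binding subunit of MuvB, differed by 0.60 ± 0.10 between the sorted cells and by 0.72 ± 0.12 (with dox) and 0.72 ± 0.11 (without) between LT-HSC-derived lines and sorted LT-HSC. Foxm1 was also lower in GMP-derived lines with dox than in sorted GMP (-0.57 ± 0.09) and than without dox (-0.32 ± 0.10, adjusted p = 0.0404), and higher in GMP-derived than in LT-HSC-derived lines without dox (0.40 ± 0.11, adjusted p = 0.0265). Of the 15 factors 9 were higher and 2 lower (Rbl2 and Nfya) in sorted GMP against LT-HSC. Of all genes 16.8% were called higher and 15.3% lower there, so the count of lower factors was near that share.

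The same 7 lists, with 152 measured entries in all, were counted in the lines. Of the 152, 76 were higher and 10 lower with dox against sorted LT-HSC (14.6% and 14.6% of all genes), and 11 higher and 44 lower with dox against sorted GMP (10.0% and 9.76%). With dox against sorted LT-HSC, 17 of 29 kinetochore genes were higher and 2 lower, 18 of 31 spindle genes were higher and 1 lower, and 15 of 29 replication genes were higher and none lower. Against sorted GMP with dox, the kinetochore list gave 2 higher and 9 lower, with Sgo2a at -0.84 ± 0.11 and Cenpw at 0.75 ± 0.11, the spindle list none higher and 9 lower, with Stil at -0.77 ± 0.09, and the replication list 1 higher and 10 lower, with Pola1 at -0.44 ± 0.10. Dox against no dox called few: in LT-HSC-derived lines at 72 h 7 of 152 were higher (4.61%, against 3.43% of all genes) and none lower (against 3.72%), among them Wee1, the kinase that restrains Cdk1, at 0.63 ± 0.14 and Mcm6 at 0.35 ± 0.08. In GMP-derived lines the lists gave 4 higher and 4 lower (2.63% each, against 5.75% and 5.18% of all genes), with Cenpl at -0.50 ± 0.12 and Haus1 at 0.46 ± 0.11. At 48 h in LT-HSC-derived lines none of the 7 lists held a called gene.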

How the data were processed

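Gene expression of 26 samples was measured on a single-colour Affymetrix array. The deposited values are log2 signals per probe set, already processed by the authors with limma and R 3.1.1, per the submitters' processing notes; how background was corrected and arrays were normalized is not stated at hand, and the scale was read from the values. Of 34760 probe sets, 21640 carried 1 symbol, 1321 several and 11799 none in the platform annotation. The fit used limma 3.58.1 under R 4.3.3, with lmFit on 1 mean for each of the 8 groups, contrasts.fit and eBayes, and 12 contrasts of group pairs and 2 of dox effects, and p-values were adjusted by Benjamini-Hochberg over 19937 genes with a threshold of 0.05, 2-sided. Intervals (95%) come from the moderated statistic with 23.3 degrees of freedom. No filter on dim genes was applied. The script was tested on simulated data. The number of arrays limits the precision.

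The members and gene lists were chosen with earlier results of these data known. Named genes were a fixed group of 17 members, the 4 largest and 2 smallest differences of a comparison, called members opposed to the members' median, up to 2 called genes per pathway list, and Foxm1, Mybl2 and Lin54. Within an origin, same-numbered arrays are the same line by their titles, with deviations correlated at r between -0.057 and 0.449 over genes, while sorted replicates share only a number (r between 0.020 and 0.061). The RefSeq tables used are of GRCm38.p6; no source at hand names the array's own build.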

Additional observations from a re-analysis of the deposited data

Results flagged for a closer look

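For each member, and for the members' median, a group of 4 arrays was searched for 1 array far from the others relative to the group's range. This gave 7 of 126 values, and chance alone marks about 1 in 20. In sorted LT-HSC, replicate 1 was far below the other 3 for Ccnb2 (8.447 against 8.954 to 8.983) and for Kif20a (6.327 against 6.523 to 6.554). In sorted GMP, replicate 4 was far above the others for Cenph (10.242 against 10.04 to 10.061). In GMP-derived lines with dox, line B6-2 was low for Bub1b (8.936 against 9.094 to 9.124), line B6-3 was high for Ube2c (8.331 against 7.998 to 8.02) and line F6-6 was high for Spc24 (8.424 against 8.339 to 8.352). The median of the 41 members was high in the dox array of line B6-1 (8.937 against 8.842 to 8.851), the array of that group with no partner without dox.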

How the results depend on the processing

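Nothing reversed. The counts of members called in sorted GMP against LT-HSC (40), in lines against sorted cells, over time and in both tests of dox effects stayed within 1.5 times under all alternatives run: quantile normalization, median centring, a filter on dim genes, the mean of probe sets, a trended and robust prior, array weights, only the groups compared, the replicate block and leaving out arrays. Dox in LT-HSC-derived lines at 48 h gave 1 member (Bub1) with the dim filter and 1 with array weights, against 0. Dox in GMP-derived lines gave 2 with quantile normalization, 2 with the dim filter, 2 with the trended prior, 3 with array weights, 0 with only the groups compared, 3 with the replicate block and 0 to 2 leaving out arrays, against 1. GMP-derived over LT-HSC-derived lines with dox gave 0 with quantile normalization, the trended prior, only the groups compared and the replicate block, and 0 to 1 leaving out arrays, against 1; without dox it gave 1 with the dim filter, 3 with array weights and 0 to 2 leaving out arrays, against 0. The replicate block changed the count of no other comparison beyond 1.5 times. Leaving out arrays gave 34 to 39 of 41 for LT-HSC-derived lines with dox over sorted LT-HSC, 38 to 40 without dox, 8 to 10 for GMP-derived lines with dox over sorted GMP and 5 to 7 without. Single-gene calls were lost in 54 and gained in 31 of the alternative fits, and 8607 kept their side. The causes were not tested.

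With 2 to 4 arrays a group, 95% intervals of the dox comparisons lay within 0.5 log2 of zero for 37 to 38 of 41 members. No detection call was used for dim signals.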

Other observations

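The difference between sorted GMP and sorted LT-HSC was also read by promoter letters. The 27 members with TTTGAA had a median of 0.94 (0.43 to 1.92) and the 8 without it 0.97 (0.01 to 1.27); the 27 with CCAAT had 0.83 (0.43 to 1.92) and the 8 without it 1.11 (0.01 to 1.36). These medians were not tested. Top2a has another probe set with its symbol alone, which was dimmer: its group means were 5.84 in sorted LT-HSC, 6.20 in sorted GMP and 6.36 to 6.52 in the lines, against 10.33, 10.92 and 10.70 to 10.80 for the one used. On the dim probe set the lines lay above sorted GMP, on the bright one below it.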
